A study of Mus musculus with 8 samples.

Results

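The 10 genes described here are known as genes of atrial heart muscle: Myl4, Myl7, Sln, Mybphl, Bmp10, Dkk3, Kcnj3, Stard10, Sbk2 and Pam. They were taken by symbol as 10 of the 55573 genes of the deposited count table, and they had been singled out on values of these same libraries, so their levels are given as a description. The libraries were made from hearts of male C57BLKS/J mice at 24 weeks of age, 4 from db/m and 4 from db/db animals. Mice of the db/db genotype lack the long form of the leptin receptor in every tissue and become obese and diabetic, and the heterozygous db/m mouse serves as its lean control. Each library started from 3 µg of total RNA. The labels do not say which parts of the heart were taken, or that each library was a separate animal, so p-values here cover only the spread among these 8 samples, and part of it may be technical. Libraries are named by genotype and replicate number, for example db/m 3.

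Muscle cells of the atria and the ventricles build their contractile filaments from different gene copies. In the adult heart the myosin light chains of Myl4 and Myl7, sarcolipin, and a potassium channel opened by acetylcholine belong largely to the atria, while the light chain of Myl2 belongs to the ventricles. Atrial cells also store atrial natriuretic peptide in granules and release it on stretch, and Bmp10, a circulating ligand of endothelial cells, is known to be made mainly by the right atrium.

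The stretch of 250 bases before the annotated gene start is shown for 4 members whose counts divided the libraries sharply, the muscle genes Myl4, Myl7 and Mybphl and the ligand Bmp10. The sequences are from RefSeq on GRCm38.p6, read 5′ to 3′ on the strand of the gene. Capitals mark matches on either strand to GATAA (the GATA factor motif), AAGTG (the NKX2-5 motif) or the CArG box that serum response factor reads, and in these 4 windows no match overlapped another.
Myl4: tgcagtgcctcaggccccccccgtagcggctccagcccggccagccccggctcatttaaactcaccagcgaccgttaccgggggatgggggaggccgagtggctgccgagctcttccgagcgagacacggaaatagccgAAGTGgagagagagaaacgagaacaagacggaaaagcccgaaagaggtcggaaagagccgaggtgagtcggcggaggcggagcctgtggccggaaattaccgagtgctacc
Myl7: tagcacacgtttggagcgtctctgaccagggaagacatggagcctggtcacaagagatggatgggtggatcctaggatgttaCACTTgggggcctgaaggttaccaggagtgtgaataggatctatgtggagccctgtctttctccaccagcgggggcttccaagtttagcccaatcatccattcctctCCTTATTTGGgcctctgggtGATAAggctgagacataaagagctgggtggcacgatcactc
Mybphl: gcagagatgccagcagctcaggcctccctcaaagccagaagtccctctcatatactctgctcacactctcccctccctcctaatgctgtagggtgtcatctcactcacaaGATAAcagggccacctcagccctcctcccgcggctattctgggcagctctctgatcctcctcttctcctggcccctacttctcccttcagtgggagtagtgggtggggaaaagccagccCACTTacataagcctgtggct
Bmp10: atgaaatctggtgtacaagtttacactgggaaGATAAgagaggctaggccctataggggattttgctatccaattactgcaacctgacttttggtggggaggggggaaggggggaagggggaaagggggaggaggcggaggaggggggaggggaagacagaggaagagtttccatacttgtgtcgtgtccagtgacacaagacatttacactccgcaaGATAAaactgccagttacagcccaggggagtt
The Myl4 window covers chr11:104550413-104550662 and the Myl7 window chr11:5898783-5899032. The Mybphl window covers chr3:108364661-108364910 and the Bmp10 window chr6:87428744-87428993. Further annotated transcripts of Myl4 start downstream of the window shown. Bmp10 held the GATA motif at 218 and 32 bases before its start, Myl7 at 41 and Mybphl at 140. The NKX2-5 motif lay 111 bases before the start of Myl4, 168 before Myl7 and 21 before Mybphl, and a CArG box lay 61 bases before the start of Myl7. Of all 32851 promoter windows of this length, 22.6% held the GATA motif, 40.7% the NKX2-5 motif and 1.47% a CArG box. Windows were given for 8 members, without Sln and Dkk3. Stard10 also held the GATA motif, and Kcnj3 held AGGTGT (the T-box motif, in 11.8% of all windows). Sbk2 and Pam held none of the 6 motifs searched, which also included AGGTCA (the nuclear receptor motif, in 14.0%) and the MEF2 site (in 2.92%). These matches describe the letters of the windows and not measured binding.

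Total counts ranged from 19541757 to 22249911 per library. Levels below are counts, or CPM, the usual counts relative to library size, here with library sizes scaled by edgeR's TMM factors. All 10 members were highest in db/m 1 and db/m 3, above each of the other 6 libraries. Of the 17411 tested genes, which include 6 of the members, 14.8% shared this pattern, and of all 55573 genes 3413 did. The members took 0.312% of all counts in db/m 1 and 0.774% in db/m 3, against 0.0694 to 0.0813% in the other 6 libraries. In these bulk samples, fewer cells of a type and less RNA per cell cannot be told apart.

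**Figure D1:**
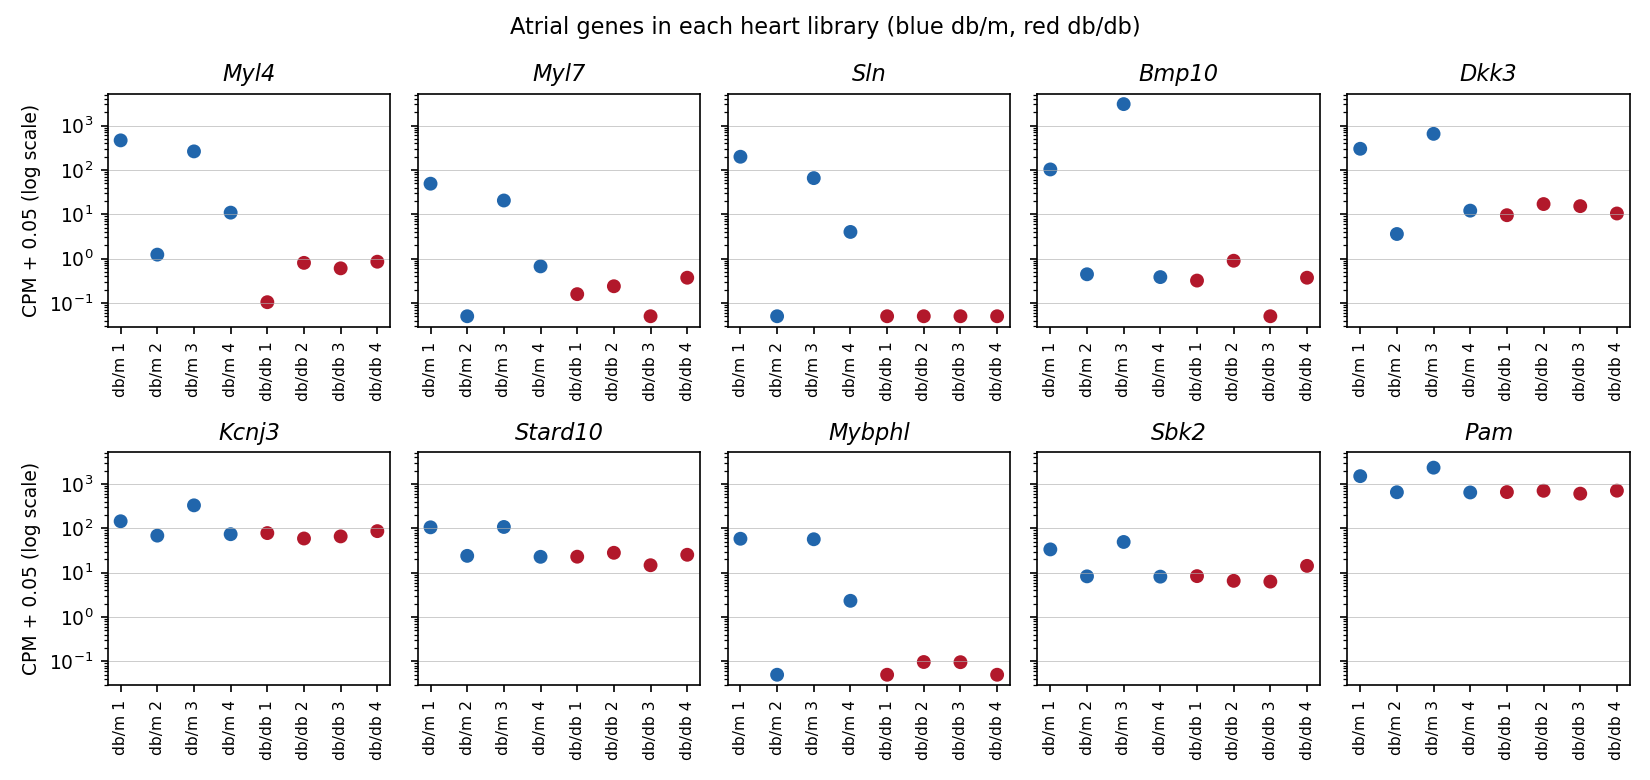
CPM of each of the 10 atrial genes (y axis, log scale after adding 0.05) in each of the 8 libraries (x axis), 1 point per library. db/m 1 and db/m 3 lie above the other 6 libraries in every panel, by a wide margin for Myl4, Myl7, Sln, Mybphl and Bmp10 and by a small one for Kcnj3 and Pam.

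Among the contractile genes, Myl4, the atrial essential light chain of myosin (ENSMUSG00000061086, chromosome 11, 104550663 to 104595753, mm10), had 10571, 24, 6371 and 228 counts in db/m 1 to 4. In db/db 1 to 4 it had 1, 16, 12 and 15 counts. Of the 10 members, Myl4 was the only one whose groups did not overlap in CPM, which held for 9.60% of all tested genes, and the db/m libraries themselves spanned from 1.18 CPM in db/m 2 to 464 in db/m 1. Myl7, the atrial regulatory light chain (ENSMUSG00000020469, chromosome 11, 5896637 to 5898782), had 1113, 0, 496 and 13 counts in db/m 1 to 4 and 2, 4, 0 and 6 in db/db 1 to 4. With db/m 2 at 0, the groups overlapped for Myl7. Mybphl, a relative of the myosin-binding proteins of the thick filament (ENSMUSG00000068745, chromosome 3, 108364911 to 108380057), had 1331, 0, 1385 and 48 counts in db/m and 0, 1, 1 and 0 in db/db. Against the floor of 3 counts in a library where it was not counted, Mybphl was at least 362-fold higher in db/m 1 and at least 352-fold higher in db/m 3.

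Sln encodes sarcolipin, a small membrane protein that slows the calcium pump of the sarcoplasmic reticulum (ENSMUSG00000042045, chromosome 9, 53850164 to 53854560). It had 4516, 0, 1589 and 83 counts in db/m 1 to 4 and 0 in each of the 4 db/db libraries. Against the same floor per library, Sln was at least 1228-fold higher in db/m 1 and at least 404-fold higher in db/m 3. Over db/m 4, the highest of the other 6 libraries, these folds were 50.3 and 16.6 (CPM). The muscle genes kept similar proportions in the 3 libraries where they were well counted. Per 100 counts of Myl4, Sln had 42.7 in db/m 1, 24.9 in db/m 3 and 36.4 in db/m 4 (exact binomial 95% interval of the last 28.0 to 47.0). Mybphl had 12.6, 21.7 and 21.1 per 100 counts of Myl4 in the same libraries, and Myl7 had 10.5, 7.79 and 5.70. These proportions differed by less than 2-fold between the 3 libraries, whereas Myl4 itself was 42.9-fold higher in db/m 1 and 24.2-fold higher in db/m 3 than in db/m 4 (CPM). Intervals and floors here cover counting error only.

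Bmp10 did not keep these proportions. It encodes bone morphogenetic protein 10, which signals to endothelium through the receptor of Acvrl1 (ENSMUSG00000030046, chromosome 6, 87428994 to 87437677). It had 2334 counts in db/m 1, 8 in db/m 2, 74283 in db/m 3 and 7 in db/m 4, and 5, 18, 0 and 6 counts in db/db 1 to 4. In db/m 3 Bmp10 held rank 12 among all genes by count and 0.340% of the library, and in db/m 1 it held rank 1721 and 0.0108%. The CPM of Bmp10 was 29.8-fold higher in db/m 3 than in db/m 1, while Myl4, Myl7 and Sln stood in db/m 3 at 0.564, 0.417 and 0.329 of their db/m 1 level. Libraries db/m 2 and db/m 4 had Bmp10 within the db/db range, at 0.392 and 0.332 CPM against 0 to 0.844.

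Set against the summed counts of Myl4, Myl7 and Sln, Bmp10 had 14.4 counts per 100 in db/m 1 (exact 95% interval 13.8 to 15.05) and 878 per 100 in db/m 3 (859 to 899). The ratio was thus 61.0-fold higher in db/m 3 (58.1 to 64.0). With each gene alone as denominator the fold was 52.8 for Myl4, 71.4 for Myl7 and 90.5 for Sln, and against Mybphl it was 30.6. In db/m 4, the library with 324 counts of the 3 muscle genes, Bmp10 had 2.16 per 100 (0.862 to 4.50), below both. In db/m 2 the value was 33.3 from 8 against 24 counts, db/db 2 had 18 against 20, and db/db 4 had 6 against 21, so these 3 ratios rest on few counts. No ratio is given for db/db 1 and db/db 3, which had 3 and 12 counts of the muscle genes. The intervals of db/m 1, db/m 3 and db/m 4 do not overlap, but each is a single library and the difference has no replicate check.

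**Figure D2:**
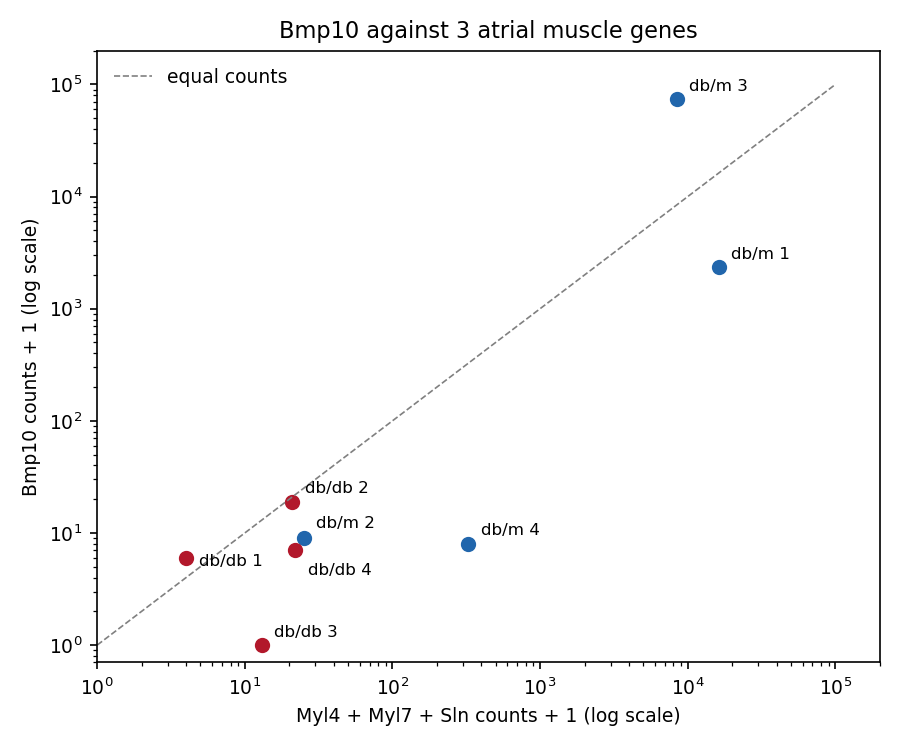
Bmp10 counts (y axis) against the summed counts of Myl4, Myl7 and Sln (x axis), both plus 1 and on log scales, 1 point per library (blue db/m, red db/db), with a dashed line at equal counts. Library db/m 3 lies above the line at 878 Bmp10 counts per 100, and db/m 1 and db/m 4 lie below it at 14.4 and 2.16.

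The other secreted or secretory members were present in all 8 libraries. Pam, the amidating enzyme of neuropeptides and an abundant membrane protein of atrial granules (ENSMUSG00000026335, chromosome 1, 97795114 to 98095646), had 34424, 13330, 57135 and 13630 counts in db/m 1 to 4. In db/db 1 to 4 Pam had 12261, 15056, 13216 and 13305 counts, so db/m 2 and db/m 4 lay inside the db/db range. Short repeats in Pam, of at most 147 bases, match 32 other genes at 95% identity or more, and its count is to that extent uncertain. Dkk3, a secreted glycoprotein of the Dickkopf family (ENSMUSG00000030772, chromosome 7, 112116017 to 112159057), had 6831, 72, 15846 and 253 counts in db/m and 176, 361, 330 and 194 in db/db. Dkk3 was thus lowest in a db/m library, db/m 2, with 3.53 CPM against 9.47 to 16.9 in db/db.

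Kcnj3 encodes GIRK1, a subunit of the potassium channel that acetylcholine opens to slow the heart (ENSMUSG00000026824, chromosome 2, 55435970 to 55598145). It had 3304, 1400, 8069 and 1559 counts in db/m 1 to 4 and 1457, 1262, 1434 and 1627 in db/db 1 to 4. Apart from db/m 1 and db/m 3, all libraries lay between 59.2 and 86.7 CPM. An antisense gene, Gm26794, overlaps Kcnj3 by 1621 bases and had 87 counts in all, and whether strand was used in counting is not given in the sources used here. Stard10, a phospholipid transfer protein (ENSMUSG00000030688, chromosome 7, 101317086 to 101346626), had 2411, 489, 2624 and 481 counts in db/m and 427, 600, 320 and 476 in db/db. Sbk2, a kinase of the SH3-binding family (ENSMUSG00000030433, chromosome 7, 4940512 to 4964406), had 765, 168, 1203 and 171 counts in db/m and 155, 139, 136 and 267 in db/db. In both genes db/m 2 and db/m 4 lay within the db/db range of CPM.

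Outside db/m 1 and db/m 3, Myl4, Myl7, Sln, Mybphl and Bmp10 had from 0 to 228 counts per library, and the first 4 of these were highest there in db/m 4. The other 5 members had at least 72 counts in every library. Over the highest of the other 6 libraries, db/m 1 was 79.1-fold higher for Myl7, 121-fold for Bmp10 and 17.7-fold for Dkk3, but 1.67-fold for Kcnj3, 2.13-fold for Pam, 2.36-fold for Sbk2 and 3.76-fold for Stard10 (CPM). In db/m 3 the same folds were 33.0, 3614 and 38.4 for Myl7, Bmp10 and Dkk3, and 3.82, 3.31, 3.47 and 3.83 for Kcnj3, Pam, Sbk2 and Stard10. Levels of different genes are compared per kilobase of the longest coding transcript. In db/m 1 Myl4 was highest at 492 CPM per kilobase, followed by Pam at 368 and Sln at 150. In db/m 3 Bmp10 was highest at 679 CPM per kilobase, followed by Pam at 572 and Myl4 at 277. In db/db Pam led at 163 ± 11.6 CPM per kilobase (SD, n = 4), followed by Kcnj3 at 13.9 ± 2.37 and Stard10 at 13.2 ± 3.36, whose ranges overlap. The atrial light chains and sarcolipin were all under 1 CPM per kilobase in db/db.

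Library db/m 3 differed from db/m 1 across all genes by transcript length. The median log2 ratio of db/m 3 over db/m 1 was -0.71 for the 2752 other tested genes with a transcript under 1000 bases and 0.46 for the 3043 other genes with one of 5000 bases or more. Against the mean of the other 6 libraries, the class medians of db/m 3 ran from -0.77 to 0.58 and those of db/m 1 from -0.05 to 0.11, so db/m 3 stood further from them than db/m 1. The members followed the same order. Apart from Bmp10, their ratio ranged from 0.329 for Sln to 2.29 for Kcnj3 and was higher for longer transcripts (Spearman rho 0.88 across 9 genes of the same 2 libraries, a description). Relative to the median of their length class, these 9 members lay between -1.15 for Sln and 1.05 for Dkk3 on the log2 scale. Bmp10, with a transcript of 4490 bases, had a log2 ratio of 4.90 and lay 4.68 above its length class.

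**Figure D3:**
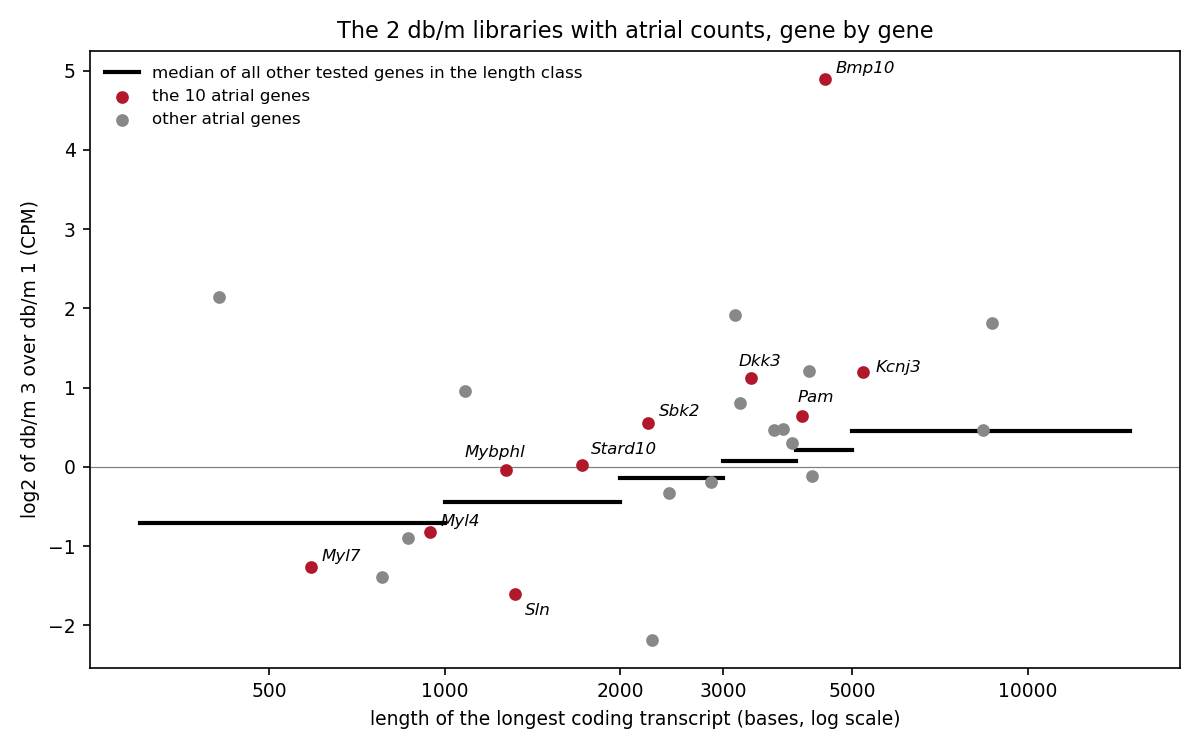
Log2 ratio of CPM in db/m 3 over db/m 1 (y axis) against length of the longest coding transcript in bases (x axis, log scale), with the 10 atrial genes in red, 16 other atrial genes in grey and black bars for the median of all other tested genes in each length class. The class medians rise from -0.71 to 0.46, 9 of the 10 atrial genes lie from -1.15 to 1.05 relative to their class median, and Bmp10 lies 4.68 above it.

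Between genotypes, 6 of the 10 members passed the filter on low counts. Myl7, Sln, Bmp10 and Mybphl did not, since too few libraries reached the filter's minimum count of 10. Of these 6, edgeR's quasi-likelihood test with Benjamini-Hochberg adjustment called 0, against 1 of 17411 genes (0.00574%). All 6 had a lower mean in db/db and an unadjusted p under 0.05 by edgeR, against 7.84% of all tested genes in that direction, and since the members were chosen on these values nothing is read from that count. DESeq2 called 2 of the 6, Myl4 and Dkk3, as lower in db/db, against 1.12% of the 17059 genes with an adjusted p. Limma-voom called 0, against 0.270% lower, with 0 at an unadjusted p under 0.05. The mean CPM of Myl4 over the 4 db/m libraries was 184 ± 222, against 0.539 ± 0.341 over the 4 db/db libraries (SD), a log2 fold change of -8.39 (SE 1.74; edgeR, adjusted p = 0.142). For Dkk3 the means were 241 ± 305 and 13.0 ± 3.64 CPM (log2 fold change -4.22, SE 1.29). In both genes the SD in db/m was larger than the mean.

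The remaining tested members had smaller differences. Kcnj3 averaged 155 ± 123 CPM over db/m against 72.6 ± 12.3 over db/db, a log2 fold change of -1.10 (SE 0.45). Pam had 1289 ± 813 and 671 ± 47.5 CPM, a log2 fold change of -0.95 (SE 0.38). The log2 fold change was -1.52 (SE 0.51) for Stard10 and -1.50 (SE 0.58) for Sbk2.

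Without db/m 1 and db/m 3, leaving 2 db/m and 4 db/db libraries, 5 of these 6 differences came close to 0 or turned. All members were highest in the libraries left out, so a shift in this direction was fixed in advance by that choice. The values are given as a description. Kcnj3 had a log2 fold change of 0.02 (SE 0.15), Pam 0.04 (SE 0.11), Stard10 -0.04 (SE 0.22) and Sbk2 0.10 (SE 0.32). Dkk3 turned from -4.22 to 0.73 (SE 0.50). Myl4 kept its direction at -3.46 (SE 0.96; edgeR, adjusted p = 0.271), with 24 and 228 counts in the 2 db/m libraries against 1 to 16. In this fit 46 of 17971 genes were called by edgeR (0.256%) and 0 of the 6 members, 1 of which, Myl4, had an unadjusted p under 0.05 (10.7% of all tested genes).

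**Figure D4:**
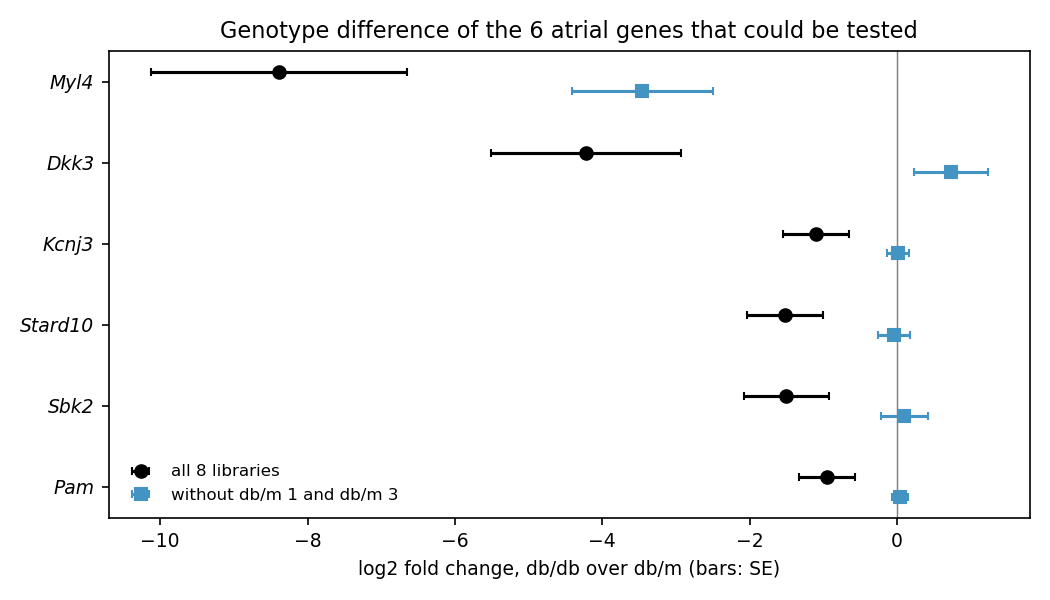
Log2 fold change of db/db over db/m with its SE (x axis) for the 6 atrial genes that passed the filter (y axis), fitted by edgeR on all 8 libraries (black circles) and without db/m 1 and db/m 3 (blue squares). All 6 are negative with all libraries, and without these libraries only Myl4 lies far from 0, at -3.46.

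Of 16 other genes known from atrial muscle, 9 were highest in both db/m 1 and db/m 3. Of the 14 that were tested 7 were, against 14.8% of all tested genes. Some of the others went the opposite way. Kcna5 was lowest in db/m 1 and db/m 3, at 48.9 and 42.8 CPM against 51.1 to 87.1 elsewhere. Nppb was lowest in db/m 3, at 96.1 CPM against 154 to 283 in the other libraries. Nppa, the gene of atrial natriuretic peptide, had 17261, 294, 9857 and 1512 counts in db/m 1 to 4 and 454, 2480, 1145 and 639 in db/db 1 to 4. Its ratio to Myl4 was 163 and 155 per 100 in db/m 1 and db/m 3, close to each other, but the other 6 libraries had far more Nppa per Myl4, from 663 per 100 in db/m 4 upwards. Sbk3, a close relative of Sbk2, had 2446, 32, 9838 and 151 counts in db/m and 80, 57, 42 and 130 in db/db. Per 100 counts of Myl4, Sbk3 was 6.67-fold higher in db/m 3 than in db/m 1. Hamp, the gene of the iron hormone hepcidin, had 33 and 156 counts in db/m 1 and db/m 3 and 0 in the other 6 libraries, and was 7.84-fold higher in db/m 3 per Myl4 (5.38 to 11.4).

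Of these 16 genes 14 were tested, and edgeR called 0 between genotypes in the fit of all 8 libraries, with 1 higher and 8 lower in db/db at an unadjusted p under 0.05 (13.0% of all genes in either direction). Their median log2 fold change was -0.68, against -0.02 over all genes, and -0.13 without db/m 1 and db/m 3. Angpt1, the gene of the vessel growth factor angiopoietin-1, had 2443, 877, 2418 and 873 counts in db/m and 534, 585, 528 and 508 in db/db, with no overlap of the groups. Angpt1 fell in db/db without db/m 1 and db/m 3 (log2 fold change -0.66, SE 0.11; edgeR, adjusted p = 0.0415) and had a log2 fold change of -1.44 (SE 0.31; edgeR, adjusted p = 0.149) with all libraries. The other 13 were not called in either fit.

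The receptors, SMAD proteins and targets of Bmp10, together with Tcap, gave 18 tested genes. Of these, 6 were highest in both db/m 1 and db/m 3, against 14.8% of all tested genes. The median log2 fold change was -0.29 (-0.10 without db/m 1 and db/m 3). With all libraries edgeR called 0, against 0.00574% of all tested genes. At an unadjusted p under 0.05 (edgeR) 1 was higher, Tcap, and 5 were lower, against 13.0% of all tested genes in either direction. Gdf2, the gene of the related ligand BMP9, had 2 and 55 counts in db/m 1 and db/m 3 and 0 to 2 elsewhere. Id1, a target of BMP signalling in endothelium, had 2343, 2232, 824 and 2052 counts in db/m and 1048, 2666, 1887 and 1900 in db/db, so the library with the most Bmp10 had the least Id1. The log2 ratio of db/m 3 to db/m 1 for Id1 was -1.15 relative to the median of its length class (from 1000 to below 2000 bases), in sign opposite to that of Bmp10. Id3 was also lowest in db/m 3 (43.4 CPM), at -0.64 on the same measure. Id2 and Id4 went the other way, highest in db/m 3 at 42.1 and 13.4 CPM, and lay 0.66 and 1.02 above their length classes. Smad6 and Smad9 were highest in db/m 3 too, at 90.2 and 14.3 CPM. Tcap, a Z-disc protein reported to bind Bmp10, had 9928, 8545, 4759 and 11581 counts in db/m and 21263, 29947, 30929 and 22773 in db/db. Tcap rose in db/db without db/m 1 and db/m 3 (log2 fold change 1.41, SE 0.15; edgeR, adjusted p = 0.00387), and with all libraries had 1.70 (SE 0.27; edgeR, adjusted p = 0.102).

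For the partners of the Kcnj3 channel, 6 of 11 genes were highest in both db/m 1 and db/m 3, against 14.8% of all tested genes. Among them was Kcnj5, the other channel subunit, with 3713, 2457, 5962 and 2509 counts in db/m and 2096, 1971, 2824 and 2135 in db/db. Chrm2, the muscarinic receptor upstream of the channel, had 5431, 3505, 10169 and 4265 counts in db/m and 3167, 2749, 4008 and 2971 in db/db. Of these 11 genes edgeR called 0, with 4 lower at an unadjusted p under 0.05, against 7.84% of all tested genes. The median log2 fold change of -0.31 became -0.02 without db/m 1 and db/m 3. Of 6 tested genes of the natriuretic peptide granule 1, Nppa, was highest in both libraries. Of 11 tested partner genes of the sarcomere and calcium pump 1 was highest in both, and their median log2 fold change was 0.29. Over all tested genes 14.8% were highest in both. EdgeR called 0 in either list with all libraries. At an unadjusted p under 0.05, 1 was lower in the granule list and 2 were higher in the sarcomere list. The share over all tested genes was 13.0% in either direction, and 7.84% lower.

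Markers of other cell types moved with the atrial genes in part. The summed level of 6 ventricular muscle markers was 4829.9 CPM in db/m 1, 2869 in db/m 3, 6516 and 6078 in db/m 2 and db/m 4, and 6288 to 8021 in db/db. The ventricular light chain Myl2 was counted in all libraries, at 13497, 15915, 2827 and 15700 in db/m and 14233 to 21681 in db/db. It was thus lowest in db/m 3, and on the log2 scale its ratio of db/m 3 to db/m 1 lay 1.64 below its length class. Myl3, Pln and Irx4 of that list were also lowest in db/m 3, at 753, 770 and 26.7 CPM. Hey2 was instead highest in db/m 3, at 12.1 CPM. Myh7 had 1192 CPM in db/m 3, against 397 to 450 in the other db/m libraries and 655 to 1590 in db/db. Relative to length class, the log2 ratio of db/m 3 to db/m 1 was -0.92 for Myl3, -0.80 for Pln and 1.13 for Myh7. Of the sarcomere partners, Tnni3 and Actc1 lay at -0.73 and -0.72, Mybpc3 at -0.39, Myh6 at 0.04 and Myl9 at 0.93. Lower values in db/m 3 were thus not confined to the ventricular markers. The 5 brown adipocyte markers summed to 171 and 522 CPM in db/m 1 and db/m 3 against 26.7 to 42.9 in the other 6 libraries, and 4 of the 5 were highest in both. The 7 white adipocyte markers summed to 561 and 651 CPM against 305 to 607, but most of that sum outside db/m 1 and db/m 3 was Fabp4 (304 to 606 CPM there), a gene that endothelial cells also express. The other 6 white adipocyte markers were all highest in db/m 1 and db/m 3, among them Plin1, a lipid droplet coat protein, with 1197, 3, 5241 and 19 counts in db/m 1 to 4 and 1 to 4 in db/db. These 6 fat genes thus divided the libraries in the same way as the atrial muscle genes. The 5 smooth muscle markers, all highest in both libraries, summed to 321 and 817 CPM against 120 to 228. For comparison, 14.8% of the tested genes and 3413 of all 55573 genes were highest in both. The tested genes include 2 of the brown and 2 of the white adipocyte markers. The 6 mesothelial markers summed to 56.4 and 103 CPM, with db/db 1 at 64.4 and the others at 16.6 to 28.8.

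The 6 neuronal markers summed to 16.7 CPM in db/m 1 and 2.38 in db/m 3 (2.31 to 5.81 elsewhere), with Snap25 at 170 and 10 counts and Th at 0 in both. Schwann cell markers reached 19.47 and 19.99 CPM against 7.99 to 15.9, and blood genes 814 and 749.7 CPM against 801 to 1751. The lung list summed to at most 0.746 CPM, the thymocyte list to 0.328 to 2.71 CPM and the skeletal muscle list to at most 2.26 CPM. Sftpa1 of the lung list and Rag1 and Dntt of the thymocyte list had 0 counts in all 8 libraries. Other genes of these lists were counted at low levels, such as Cd3e of the thymocyte list with 6 to 36 counts per library. The part of these cell types in the atrial result was not tested.

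Markers of the sinoatrial node, the pacemaker region of the right atrium, summed to 165 and 180 CPM in db/m 1 and db/m 3, within the range of the other 6 libraries (161 to 215). Within that list of 8, 3 of 6 tested genes were highest in both, against 14.8% of all tested genes. Shox2, a pacemaker transcription factor, had 86, 20, 275 and 41 counts in db/m and 20, 28, 19 and 17 in db/db, and Isl1 had 7 and 15 counts in db/m 1 and db/m 3 and 0 elsewhere. With all libraries edgeR called 0 of the 6 between genotypes. A lower mean in db/db with an unadjusted p under 0.05 was found for 3, against 7.84% of all tested genes.

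**Figure D5:**
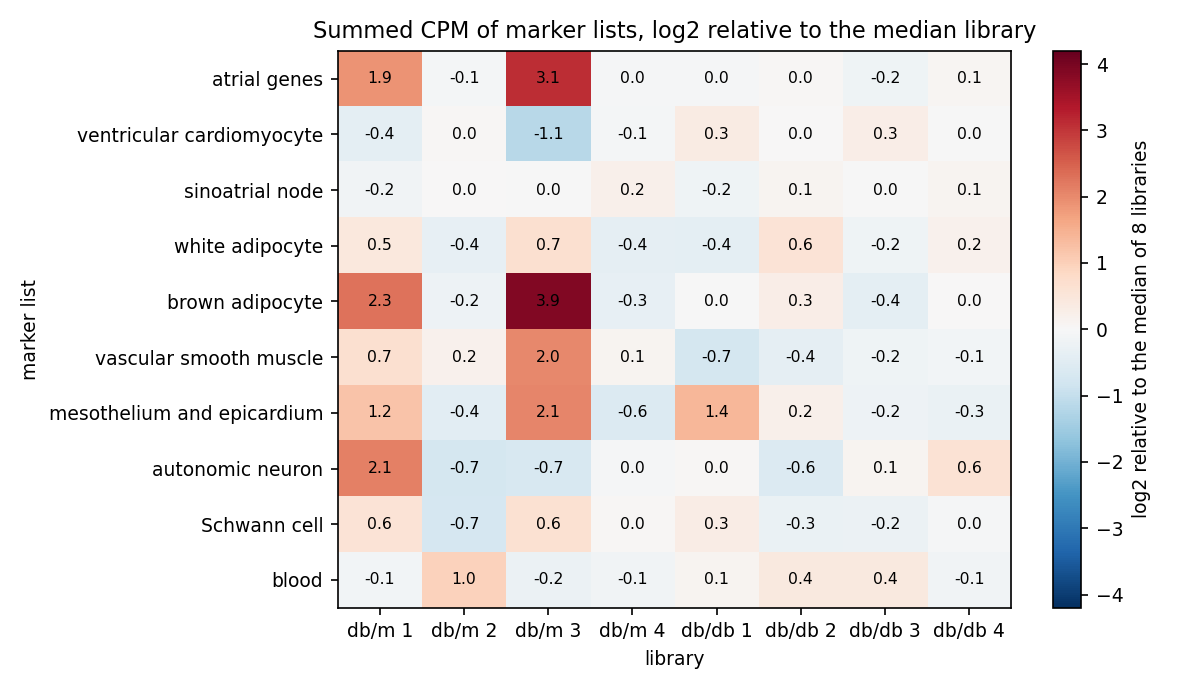
Summed CPM of each marker list (rows) in each library (columns), as log2 relative to the median of the 8 libraries, with the value printed in each cell. Atrial, brown adipocyte and smooth muscle sums are highest in db/m 1 and db/m 3, ventricular sums are lowest there, and neuronal sums are highest in db/m 1.

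Outside these lists, the tested genes most like the mean log2 CPM of Myl4, Myl7 and Sln over the 8 libraries were Gm9165, Spidr, Ptgfr, Ltbp4, Col3a1, Fgf14, Dock6 and Col5a2 (Pearson r 0.97 to 0.98). Ptgfr, a prostaglandin receptor, had 1020, 69, 1304 and 193 counts in db/m and 71, 133, 81 and 121 in db/db, with db/m 4 next in order after them, as for Myl4. Col3a1, a fibrillar collagen, had 5733, 2167, 6417 and 2817 counts in db/m and 2016 to 2200 in db/db. The genes most like Bmp10 were Pi15, Aebp1, Tpm2, Sulf1, Etv1, Stxbp6, Podn and Pde3b (r 0.98 to 0.99). Pi15, a secreted protein, had 529, 157, 1172 and 137 counts in db/m and 118 to 160 in db/db, and Tpm2, a tropomyosin, had 879, 312, 1592 and 337 counts in db/m and 254 to 342 in db/db. The 2 sets share no gene. All 8 libraries enter each r, which rests mainly on the distance of db/m 1 and db/m 3 from the others.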

How the data were processed

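Heart RNA was sequenced in 8 libraries. The authors deposited raw counts for each Ensembl gene ID, made against mm10, per the submitters' processing notes and the file headers. The deposited table also gives each gene's length in bases. The sources used here do not give the aligner, the counting tool or the strand setting. The 8 files of single samples equalled the table of the whole series, and 0 columns of samples were left out. Symbols came from GENCODE M21 (55394 of 55573 IDs), and lengths of the longest coding transcript, or of the longest transcript of a noncoding gene, from the same annotation.

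Groups follow the genotype in the labels. Tests used edgeR 4.0.16 (R 4.3.3): filterByExpr (minimum count 10, total 15), TMM scaling, the robust quasi-likelihood F test, two-sided, with Benjamini-Hochberg adjustment across the 17411 tested genes at a threshold of 0.05. Log2 CPM used a prior count of 2. The test was checked on simulated data. Depth of 19541757 to 22249911 counts per library limits genes with few counts, for which exact binomial 95% intervals or a floor of 3 counts per library are given. Near-identical copies were sought with BLAST 2.17.0 (at least 95% over 100 bases). Motif matches were counted in RefSeq windows of 250 bases.

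Alternatives were DESeq2 1.42.0, limma-voom 3.58.1 with quality weights, other scalings, other filters, a replicate block, a threshold of 0.1, leaving out each library or db/m 1 and db/m 3 together, and other denominators. A fit with the trend of each library on transcript length removed was added after seeing the data. The members and lists were chosen with earlier results of these data known. Named genes are all members, genes of the lists, always beside the count over the list, and the 8 genes most like each of 2 profiles. Some genes of the lists are not reported here.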

Additional observations from a re-analysis of the deposited data

Results flagged for a closer look

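The CPM of Bmp10 in db/m 3 was 3049.5, while the other 3 db/m libraries had 0.332 to 102. Its gap to the nearest library was 0.967 of the range of the group, above Dixon's 95% critical value for 4 samples. The level was examined in this way in 24 groups of 4 libraries, and 1 was marked. Sln in db/db, at 0 in all 4 libraries, could not be marked. Chance marks about 1 in 20 groups, but Bmp10 had been singled out on these same values. The mark is therefore a description and not a test. No other member was marked, since db/m 1 stood high together with db/m 3. The Bmp10 result is the level of a single library.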

How the results depend on the processing

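EdgeR called 1 gene with all libraries, as it did with RLE scaling, with library totals and with a filter of 1 CPM in 4 libraries. The count was 377 with DESeq2, 101 with limma-voom, 27 with no filter, 5 with the replicate block, 4 at a threshold of 0.1, 22 with the length trend removed and 46 without db/m 1 and db/m 3. Leaving out 1 library gave 0 to 106, the highest without db/m 3. Members called were 2 with DESeq2 and 0 in all other settings, those leaving out 1 library included. Partner genes called, 0 of 58 with all libraries (21 at an unadjusted p under 0.05), were 6 with DESeq2, 1 with limma-voom, 1 with no filter, 1 with the length trend removed, 2 without db/m 1 and db/m 3 and 0 to 2 on leaving out 1 library. The log2 fold changes of Dkk3, Kcnj3, Sbk2 and Pam reversed without db/m 1 and db/m 3, to 0.73, 0.018, 0.10 and 0.038, and in no other of the 17 settings. Those of Myl4 (-8.80 to -3.46) and Stard10 (-1.79 to -0.04) stayed negative in all 17. Leaving out db/m 3 alone changed Kcnj3 from -1.10 to -0.39, Pam from -0.95 to -0.47, Sbk2 to -0.91 and Dkk3 to -2.99. The replicate numbers did not pair the libraries (correlations of deviations -0.0882 to 0.0560), and with the block Myl4 had -6.75. Bmp10 per 100 counts was 22.1 with Myl4, 209.7 with Myl7 and 51.7 with Sln as denominator in db/m 1, and 1166, 14976 and 4675 in db/m 3; per kilobase of deposited length it was 6.85 and 484. In each case db/m 3 was the higher. The cause of these changes was not tested. Depth limits the ratios of the libraries with under 30 counts of the 3 muscle genes.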
